A study of Mus musculus with 6 samples.

Results

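The iron and metal handling genes of liver sinusoidal endothelial cells (LSECs) were followed as a group of 10 genes, picked by symbol to cover iron storage, uptake and export, the metallothioneins and zinc export. The group holds *Fth1*, *Ftl1*, *Ncoa4*, *Tfrc*, *Slc11a2*, *Slc39a14*, *Slc40a1*, *Mt1*, *Mt2* and *Slc30a1*. Each symbol matched 1 row, so the group makes up 10 of the 23282 rows of every count table, and all 10 were among the 11583 rows that passed the filter on low counts. Iron that enters a cell is used, stored inside the ferritin shell or pumped out through ferroportin, and cells balance these routes partly through iron regulatory proteins that bind hairpins, the iron-responsive elements, in the messages for ferritin, transferrin receptor and ferroportin. Metallothioneins are small cysteine-rich proteins that bind zinc and copper, and their genes are switched on by the zinc-sensing factor MTF1. In the liver, Kupffer cells recycle the iron of old red blood cells, and LSECs make BMP ligands that set how much of the iron hormone hepcidin the hepatocytes release.

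The study compared LSECs from *Txnip-/-* mice, which lack *Txnip* in the whole body and were kept on a C57BL/6J background, with LSECs from C57BL/6J mice as wild-type (WT) controls, to learn what loss of this thioredoxin-binding protein does in the sinusoidal endothelium. The cells were taken by collagenase perfusion of the liver, an Opti-Prep gradient and magnetic beads against CD146. The study cultured LSECs selected this way in endothelial growth medium. Its sequencing methods do not say whether this RNA was taken before or after culture. The labels of these libraries name no age, sex, diet or treatment. RNA was sequenced as QuantSeq 3′ mRNA libraries, 3 per genotype, in which each read starts near the polyadenylated end of a transcript, so a longer transcript does not gather more reads and levels can be set side by side between genes. Nothing in the labels says that the libraries came from separate mice, so p-values measure the spread between these libraries, which may be technical.

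Counts summed to 9147764, 10193952 and 9632360 in *Txnip-/-* replicates 1, 2 and 3 and to 9745357, 9951078 and 9699159 in WT replicates 1, 2 and 3. Levels are given below as CPM scaled by TMM normalization, and the mean ± SD is over n = 3 libraries. Each library matched its label by *Txnip* itself, with 269, 216 and 191 counts in *Txnip-/-* against 1901, 2019 and 1994 in WT. Its level was 24.2 ± 5.15 CPM against 196.1 ± 13.3 CPM (log2 fold change -3.02, SE 0.14, Benjamini-Hochberg adjusted p = 6.94e-10 by the quasi-likelihood test of edgeR). Which part of the gene is deleted was not given in the sources used here, so the remaining 3′ reads cannot be placed relative to it. The WT libraries were not alike. *Rn45s*, the ribosomal RNA precursor, made up 10.03% and 9.68% of WT replicates 1 and 2, but 17.8% of WT replicate 3 and 17.0%, 18.6% and 16.8% of the *Txnip-/-* libraries. A chi-square distance per degree of freedom was taken over raw counts with *Rn45s* among them, so it is not separate from that share. By this distance WT replicate 3 stood 37.0 and 40.2 from the other WT libraries and 13.3 to 17.1 from those of *Txnip-/-*. By its *Txnip* counts, given above, it stood with the other WT libraries. The log2 fold change of each of the 10 genes is therefore also given without WT replicates 1 and 2, where the single WT library is assumed to vary like the *Txnip-/-* libraries.

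The LSEC label was checked against markers. A gene was called when its adjusted p was under 0.05 with edgeR and its fold change above 1.3, and by this rule 0.932% of all 11583 tested genes were lower and 0.509% higher in *Txnip-/-*. All 14 LSEC markers passed the filter, and their summed level was 4746, 5080 and 5198 CPM in the *Txnip-/-* libraries and 7150, 7295 and 5510 CPM in the WT libraries, led by the hyaluronan receptor gene *Lyve1*. Of these markers 2, *Stab1* and *Mrc1*, were called lower in *Txnip-/-*, and none was at 0. All 14 had a lower mean in *Txnip-/-*, and 8 had an unadjusted p under 0.05 by edgeR's test, where 11.5% of all tested genes passed. *Lyve1* had 1475, 1642 and 1976 CPM in *Txnip-/-* and 3482, 3780 and 1520 CPM in WT. Kupffer cell and macrophage markers were present at a lower level and differed by genotype. Their sum was 315.3, 305.6 and 339.8 CPM in *Txnip-/-* and 777, 742 and 762 CPM in WT, a ratio of 0.421 of the means. Of the 12 of these 13 markers that were tested, 11 were called lower in *Txnip-/-*, and the most abundant was *Marco*. Stellate cell markers summed to 65.7, 79.1 and 86.4 CPM in *Txnip-/-* and 55.4, 51.4 and 48.2 CPM in WT, led by *Dcn*, with *Dcn* and *Acta2* called higher among the 9 tested of 11. Hepatocyte markers summed to 73.0, 67.0 and 73.7 CPM against 62.0, 61.1 and 63.2 CPM, led by *Alb*, with 0 of 10 tested called by edgeR's test and 1 of 10 at an unadjusted p under 0.05. Red blood cell precursors, neutrophils and lymphocytes left almost no trace. Erythroid markers summed to at most 5.03 CPM in any library, led by *Hba-a1*, with *Slc4a1* at 0 counts. Among them 2 pairs of beta-globin rows hold the same counts, so this sum may hold the same reads more than once. Neutrophil markers summed to at most 2.24 CPM, led by *Cxcr2*, with *Camp*, *Ngp*, *Elane*, *Mpo* and *Retnlg* at 0. B and T lymphocyte markers summed to at most 0.641 CPM, led by *Cd79a*, with *Cd79b*, *Ms4a1*, *Cd3d*, *Cd3e* and *Nkg7* at 0. A count of 0 allows up to 3 counts, or 0.335 CPM in the shallowest library, and covers counting error only.

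By edgeR's quasi-likelihood test 0 of the 10 genes were called, while 167 of all 11583 tested genes were (1.44%), 59 of them higher (0.509%) and 108 lower (0.932%) in *Txnip-/-*. This split depended on the settings, with 35 higher and 145 lower with no normalization factors and 52 higher and 55 lower without WT replicates 1 and 2. At an unadjusted p under 0.05, 6 of the 10 genes passed, beside 1336 of all tested genes (11.5%). DESeq2 called 1 of the 10, *Slc40a1*, beside 219 of 16762 genes, and limma-trend called 0, beside 172 of 11583. The adjusted p alone was under 0.05 with edgeR for 1 gene, *Fth1*, whose fold change stayed under 1.3, beside 179 of all 11583 tested genes. For 6 genes every *Txnip-/-* library lay on one side of every WT library, 5 of them higher and 1 lower, where 17.4% of all tested genes were without such an overlap. The mean was higher in *Txnip-/-* for 8 genes and lower for 2, although the signs of *Ftl1*, *Slc39a14* and *Ncoa4* turned under other settings. The median log2 fold change of the 10 genes was 0.20, with a range from -0.44 to 0.36, and that of all tested genes was -2.75e-05. These are counts over genes chosen with earlier results known and carry no test of the group.

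**Figure D1:**
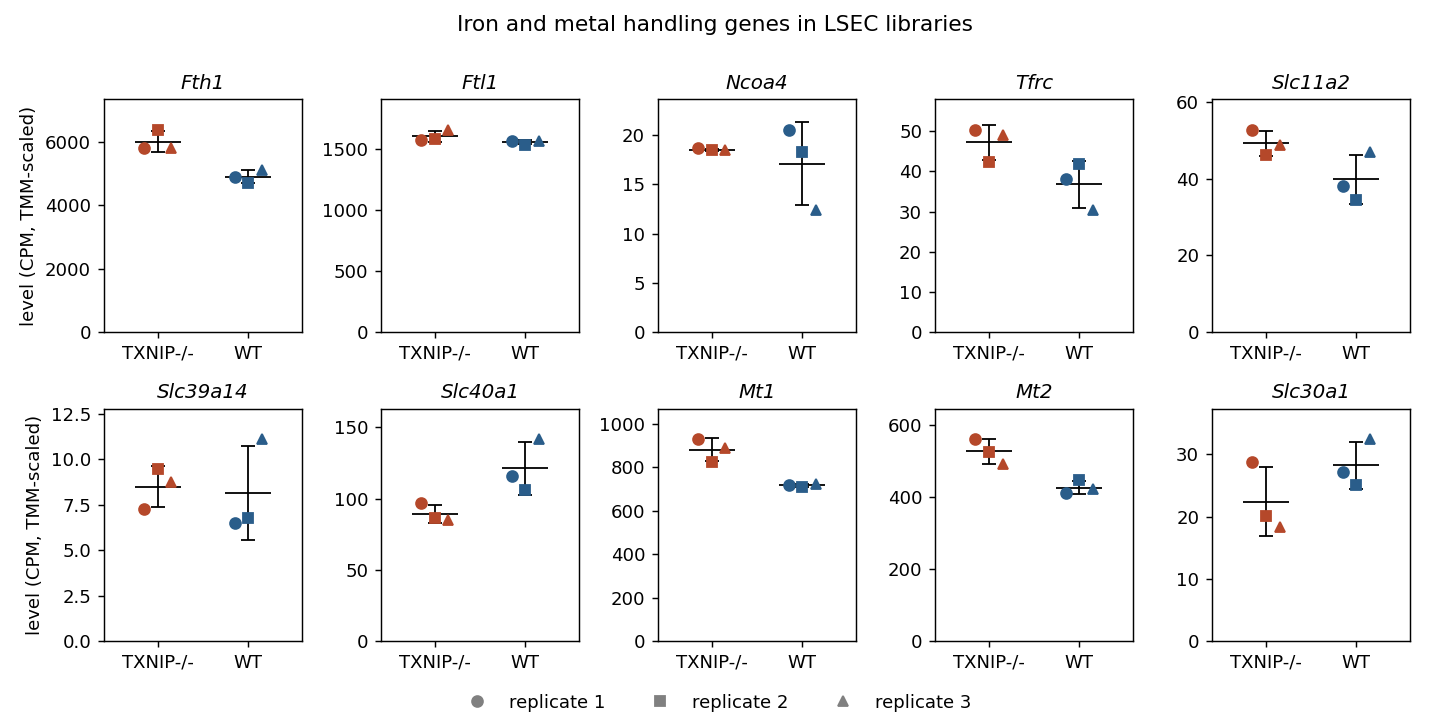
Level of each of the 10 genes in every library, in CPM scaled by TMM normalization on an axis from 0, with *Txnip-/-* libraries in red on the left, WT libraries in blue on the right and the replicate number as the symbol. The wide bar is the mean and the error bar the SD over 3 libraries. *Fth1*, *Mt1* and *Mt2* are higher in every *Txnip-/-* library, *Slc40a1* is lower in every one, and for *Slc39a14* and *Ncoa4* the groups overlap.

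*Fth1* (chr19:9980598-9985098 on the plus strand of GRCm38, GENCODE M21, as for all positions of genes here), which encodes the ferritin heavy chain that oxidises iron for storage, was the most abundant of the 10 genes and ranked 4 among all tested genes by its mean level. It had 5808, 6378 and 5806 CPM in the *Txnip-/-* libraries and 4901, 4693 and 5104 CPM in the WT libraries. The lowest *Txnip-/-* library was above the highest WT library. The level was 5997 ± 329.8 CPM against 4900 ± 205.5 CPM, a log2 fold change of 0.29 (SE 0.063, 95% interval 0.16 to 0.42, adjusted p = 0.0227 with edgeR), or 1.22-fold. This passed the adjusted p but not the 1.3-fold limit. The adjusted p depended on the libraries. With edgeR it ranged from 0.0833 to 0.136 when either any *Txnip-/-* library or WT replicate 1 or 2 was left out, and was 0.000314 without WT replicate 3. Without both WT replicates 1 and 2 the log2 fold change was 0.23 (adjusted p = 0.0571, edgeR). With no normalization factors it was 0.21 (adjusted p = 0.117, edgeR), and with limma-trend the adjusted p was 0.0738. It was under 0.05 with DESeq2 (adjusted p = 0.000727), with no filter on low counts (0.00185, edgeR) and with at least 10 counts in every library (0.0327, edgeR).

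*Ftl1* (chr7:45457944-45459884, minus strand) encodes the ferritin light chain, which helps the iron core to form and has no oxidase activity of its own. It had 1572, 1582 and 1658 CPM in *Txnip-/-* and 1565, 1535 and 1565 CPM in WT. The lowest *Txnip-/-* library, at 1572 CPM, was just above the highest WT libraries at 1565 CPM, and the log2 fold change was 0.04 (95% interval -0.096 to 0.19, adjusted p = 0.879, edgeR). The sign turned to -0.04 when no normalization factors were used, and the value was 0.04 without WT replicates 1 and 2. Thus the heavy chain exceeded the light chain by 3.69, 4.03 and 3.50 times in the counts of the *Txnip-/-* libraries and by 3.13, 3.06 and 3.26 times in those of WT. This ratio of counts, which needs no scaling between libraries, was higher in every *Txnip-/-* library (3.74 ± 0.268 against 3.15 ± 0.103, n = 3). Over all counts, both ferritin rows took 0.723%, 0.766% and 0.725% in *Txnip-/-* and 0.682%, 0.657% and 0.650% in WT. Without *Rn45s* in the total these shares were 0.871%, 0.942% and 0.872% against 0.758%, 0.727% and 0.791%.

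The *Ftl1* count is less certain than the others, because the authors counted reads with several alignments and ferritin genes have many processed copies. The last 500 bases of the *Ftl1* transcript matched 19 other gene entries at 90% identity or more over at least 100 bases. Of these, 7 are pseudogenes and 11 are short miRNA entries, of which *Gm22133* lies on the end of *Ftl1* itself. The remaining entry, *Ftl1-ps1* on chromosome 13, is annotated as protein coding and was 99.4% identical over 500 bases. For *Fth1* there was 1 such copy, *Gm6977* on chromosome X (90.7% over 323 bases). None of these entries has a row of its own in the count tables, so how reads from them were counted cannot be seen there. On the same strand, the ends of the other 8 genes matched no other annotated transcript at these limits. The end of *Mt2* overlaps *Gm45774* on the opposite strand. The rows of the ferritin relatives *Ftmt* and *Fthl17* held 0 counts in all 6 libraries.

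*Ncoa4* (chr14:32159865-32179855, plus strand) encodes the receptor that carries ferritin to the lysosome, where its iron is freed. It was a gene of moderate level, at 18.6, 18.5 and 18.5 CPM in *Txnip-/-* and 20.5, 18.3 and 12.4 CPM in WT. The *Txnip-/-* libraries hardly differed from one another and lay within the WT range, in which WT replicate 3 was the low one. The log2 fold change of 0.12 (95% interval -0.33 to 0.57, adjusted p = 0.904, edgeR) became -0.07 without that library and 0.58 without WT replicates 1 and 2 (adjusted p = 0.607, edgeR). The interval holds both 0 and a change of the size seen for *Fth1*.

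Among the uptake genes, *Tfrc* (chr16:32608920-32632794, plus strand) encodes the receptor that brings transferrin-bound iron into endosomes. Its level was 50.4, 42.3 and 49.1 CPM in *Txnip-/-* and 38.2, 41.9 and 30.4 CPM in WT. The groups touched without overlapping, with *Txnip-/-* replicate 2 just above WT replicate 2. The log2 fold change was 0.36 (SE 0.15, 95% interval 0.04 to 0.68, unadjusted p = 0.0289, adjusted p = 0.348, edgeR across all genes), so it was not called. With 1 library left out it lay between 0.24 and 0.46, and without WT replicates 1 and 2 it was 0.64.

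*Slc11a2* (chr15:100387898-100425072, minus strand), the divalent metal transporter that moves iron out of the endosome into the cytosol, had a level close to that of *Tfrc*, with 52.8, 46.3 and 48.8 CPM in *Txnip-/-* and 38.2, 34.6 and 47.0 CPM in WT. WT replicate 3 lay within the *Txnip-/-* range and the other WT libraries below it. The log2 fold change was 0.31 (SE 0.14, adjusted p = 0.43, edgeR) and was 0.44 without WT replicate 3 and 0.07 without WT replicates 1 and 2. *Slc39a14* (chr14:70303469-70351425, minus strand), a zinc transporter that also takes up iron not bound to transferrin, was the least abundant of the 10 genes. It had 7.26, 9.48 and 8.77 CPM in *Txnip-/-* and 6.52, 6.76 and 11.1 CPM in WT, from 65 to 105 counts a library. The groups overlapped, WT replicate 3 was the highest of all, and the log2 fold change of 0.07 had an interval from -0.57 to 0.70 (adjusted p = 0.96, edgeR). Without WT replicates 1 and 2 it was -0.38.

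*Slc40a1* (chr1:45908068-45926523, minus strand) encodes ferroportin, the exporter through which cells release iron, and had the largest fold change of the 10 genes with all libraries in. It had 96.8, 86.1 and 85.1 CPM in the *Txnip-/-* libraries and 115.9, 106.1 and 141.8 CPM in the WT libraries. Every *Txnip-/-* library was below every WT library, and WT replicate 3 was the highest. The level was 89.3 ± 6.48 CPM against 121.3 ± 18.5 CPM, a log2 fold change of -0.44 (SE 0.12, 95% interval -0.69 to -0.19, adjusted p = 0.0797, edgeR). The fold change was past the 1.3-fold limit but the adjusted p was not under 0.05. Without WT replicate 3 the log2 fold change was -0.31 (adjusted p = 0.142, edgeR), which is inside the 1.3-fold limit. With DESeq2 the adjusted p was 0.0437 and the gene was called, as it was with no normalization factors (adjusted p = 0.0287, edgeR), with no filter on low counts (0.00811) and without WT replicates 1 and 2 (log2 fold change -0.67, adjusted p = 0.0242). Over all alternatives its adjusted p ran from 0.00811 to 0.254, the latter without *Txnip-/-* replicate 3. Kupffer cells carry much ferroportin, and the Kupffer marker sum was lower in the same libraries, at 320.2 ± 17.6 CPM against 761 ± 17.8 CPM. Its part in the result was not tested, and in bulk RNA fewer cells of a type and less RNA per cell cannot be told apart. The ratio of exporter to receptor counts, *Slc40a1* over *Tfrc*, was 1.92, 2.04 and 1.73 in *Txnip-/-* and 3.04, 2.53 and 4.67 in WT, without overlap. The ratio of *Fth1* to *Tfrc* counts overlapped, at 115.3, 150.8 and 118.3 in *Txnip-/-* and 128.4, 112.0 and 168.1 in WT.

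The metallothionein genes *Mt1* (chr8:94179082-94180327) and *Mt2* (chr8:94172664-94173568) lie 5513 bases apart on the plus strand. *Mt1* had 929.8, 824 and 889.6 CPM in *Txnip-/-* and 719, 711 and 725 CPM in WT. *Mt2* had 561, 527 and 493 CPM in *Txnip-/-* and 412, 447 and 422 CPM in WT. For both genes the groups did not overlap, and the coefficient of variation of *Mt1* was 0.985% in WT and 6.06% in *Txnip-/-*. The log2 fold change was 0.30 for *Mt1* (SE 0.076, 95% interval 0.14 to 0.46, adjusted p = 0.0637, edgeR) and 0.30 for *Mt2* (SE 0.082, 95% interval 0.13 to 0.48, adjusted p = 0.0852, edgeR), or 1.23-fold and 1.24-fold. Neither was called. DESeq2 gave adjusted p-values of 0.00198 and 0.00728 for these genes, and edgeR with no filter on low counts gave 0.0297 and 0.0398. The fold changes stayed under 1.3 in both settings. With each library left out, the edgeR adjusted p ran from 0.0122 to 0.276 for *Mt1* and from 0.0344 to 0.37 for *Mt2*, both lowest without WT replicate 3. Without WT replicates 1 and 2 the log2 fold change was 0.28 for *Mt1* and 0.32 for *Mt2* (adjusted p = 0.212 and 0.209, edgeR), and with no normalization factors 0.21 and 0.22 (adjusted p = 0.261 and 0.293, edgeR). There were 1.68 ± 0.121 counts of *Mt1* to each count of *Mt2* in *Txnip-/-* and 1.68 ± 0.0825 in WT. The other metallothionein rows were silent, *Mt3* with 1 count in 1 library and *Mt4* with 0.

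*Slc30a1* (chr1:191906767-191913247, plus strand) encodes the exporter that carries zinc out across the plasma membrane and is a known target of MTF1, like the metallothioneins. It had 28.8, 20.1 and 18.4 CPM in *Txnip-/-* and 27.2, 25.1 and 32.5 CPM in WT. *Txnip-/-* replicate 1 lay within the WT range and the other *Txnip-/-* libraries below it. The log2 fold change was -0.33 (95% interval -0.74 to 0.07, adjusted p = 0.55, edgeR), with -0.55 as the lowest and -0.21 as the highest value when a library was left out and -0.53 without WT replicates 1 and 2. Whether this gene differs in its change from *Mt1* and *Mt2* was not tested.

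**Figure D2:**
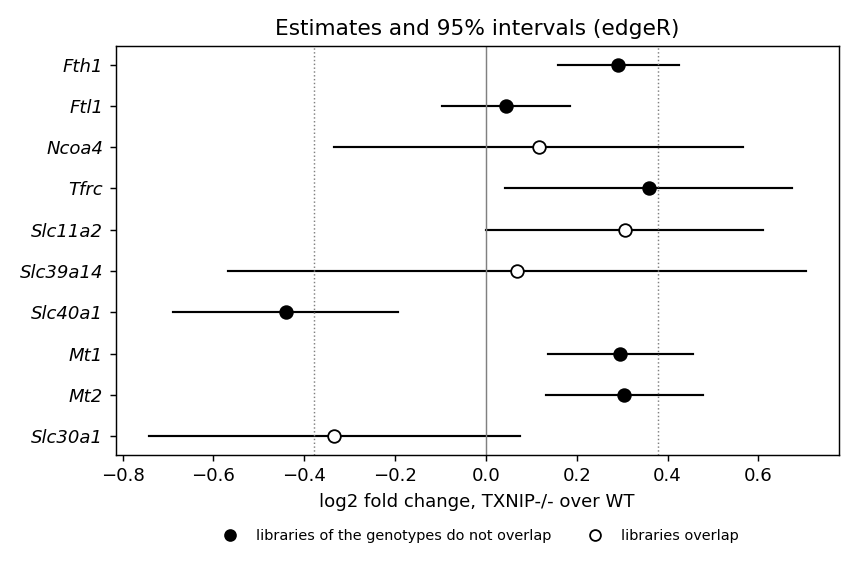
Log2 fold change of *Txnip-/-* over WT for each of the 10 genes with its 95% interval from edgeR. Filled points mark genes whose libraries do not overlap between genotypes, open points those that do, and dotted lines mark a 1.3-fold change. The intervals of *Fth1*, *Mt1*, *Mt2*, *Tfrc* and *Slc11a2* lie above 0, that of *Slc40a1* runs from -0.69 to -0.19, and that of *Slc39a14* spans both dotted lines.

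The genes whose pattern over the 6 libraries was most like that of *Fth1*, by Pearson correlation of log2 CPM among the 11582 other tested genes, were *Eif4a1* (r = 0.998), *Trim59* (0.992), *Cdk6* (0.991) and *Flnc* (0.988). For *Tfrc* they were *Rpf2* (r = 0.992), *Gpc1* (0.990), *Setd8* (0.985) and *R74862* (0.982). A correlation of 0.95 or more was reached by 50 genes with *Fth1* and by 48 with *Tfrc*, and over 6 libraries these values are a description without a test.

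The messages of iron handling genes carry iron-responsive elements, so the annotated coding transcripts of the 10 genes were searched for the letters CAGTGN as a loop between 5 paired bases on each side, G with T pairs included, with an unpaired C before the stem. These elements are shown because the iron regulatory proteins bind them: bound in the 5′ untranslated region they hold back translation of the message, and in the 3′ untranslated region they protect it from decay. There were 7 matches in 4 of the 10 genes. *Fth1* has its element at chr19:9982732-9982761 on the plus strand in exon 2, *Ftl1* at chr7:45459778-45459807 on the minus strand in exon 1, and *Slc40a1* at chr1:45925464-45925493 on the minus strand in exon 1, all in the 5′ untranslated region. *Tfrc* has 4, in the 3′ untranslated region in exon 19 on the plus strand, at chr16:32631219-32631248, chr16:32631598-32631627, chr16:32631663-32631692 and chr16:32631710-32631739. Exons are numbered on the transcript with the longest coding sequence, or the longest of these. The promoter table used below also lists an *Fth1* promoter at chr19:9982396-9982645, nearer the element. The exon number of the *Fth1* element may therefore differ in other transcripts. Positions and sequences are those of GENCODE M21 on GRCm38, and each line gives 30 bases with the loop in capitals.
Fth1: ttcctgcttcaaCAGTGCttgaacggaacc
Ftl1: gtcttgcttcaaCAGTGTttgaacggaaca
Tfrc element 1: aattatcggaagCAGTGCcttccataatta
Tfrc element 2: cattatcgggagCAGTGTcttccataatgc
Tfrc element 3: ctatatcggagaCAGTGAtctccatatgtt
Tfrc element 4: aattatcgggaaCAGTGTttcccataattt
Slc40a1: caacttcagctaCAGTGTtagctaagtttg
The ferritin loops differ in their last letter and are flanked by the same stem letters, TTCAA before and TTGAA after. Such a match is uncommon, being found in 258 of 21864 protein-coding genes (1.18%) with 1 transcript per gene, in a 5′ untranslated region in 19 (0.0869%) and more than once in 4. No match in the other 6 genes says only that these letters with this pairing were not there. The genes that carry a match did not share a direction: the log2 fold changes were 0.29 for *Fth1*, 0.04 for *Ftl1*, -0.44 for *Slc40a1* and 0.36 for *Tfrc*. Translation was not measured in these libraries.

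As *Mt1* and *Mt2* had nearly the same fold change, their promoters are printed with the core letters of the metal response element, the site that MTF1 binds, in capitals. The RefSeq promoter table (GRCm38.p6, 250 bases before to 50 after each annotated start) held 11 promoters for 7 of the 10 genes, and no entry for *Slc40a1*, *Slc11a2* and *Slc39a14*. The letters searched were TGCACNC and TGCGCNC on both strands. *Mt1* had 3 matches and *Mt2* had 4, and *Slc30a1* had 2. In all 32851 promoters of this length 25.7% held at least 1 match, 7.11% at least 2, 1.97% at least 3 and 0.517% at least 4. In the 11250 promoters of tested genes the shares were 35.6%, 11.3%, 3.2% and 0.862%. The upstream promoter of *Tfrc* held 2 matches that overlap each other on opposite strands, 1 of 3 *Ncoa4* promoters held 1, and the promoters of *Fth1* and *Ftl1* held 0. The bases before the start are chr8:94178839-94179088 for *Mt1* and chr8:94172368-94172617 for *Mt2*, both on the plus strand.
Mt1: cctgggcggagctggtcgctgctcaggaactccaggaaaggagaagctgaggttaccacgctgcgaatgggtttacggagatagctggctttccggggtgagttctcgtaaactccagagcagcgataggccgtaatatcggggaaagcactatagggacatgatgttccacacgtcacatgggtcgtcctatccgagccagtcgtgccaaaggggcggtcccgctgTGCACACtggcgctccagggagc
Mt2: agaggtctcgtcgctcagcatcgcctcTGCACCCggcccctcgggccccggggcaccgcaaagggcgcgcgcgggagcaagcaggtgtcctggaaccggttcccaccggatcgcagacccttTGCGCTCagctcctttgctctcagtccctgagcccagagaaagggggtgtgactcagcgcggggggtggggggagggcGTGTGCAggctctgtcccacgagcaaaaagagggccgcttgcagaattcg
The match in this stretch of *Mt1* begins at base -23 from the start, and the others follow at bases 3 and 21 after it. In *Mt2* they begin at bases -223 and -128 and, on the opposite strand, at bases -50 and 5. These positions count from the 1 annotated start that the table gives for each of these genes. Whether transcription in these cells begins there was not measured. Bases further than 50 after it were not searched, so the numbers of matches hold for this window only. The core of the antioxidant response element, TGACNNNGC on both strands, was found in 12.4% of all promoters, in 14.4% of those of tested genes and in 1 promoter each of *Mt2*, *Slc30a1* and *Ncoa4*. A match is a description of letters and not a shown site.

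Around these genes stands a wider set for iron, haem, zinc and copper. Of 116 genes in 9 lists 98 were tested, and edgeR's test called 0 higher and 2 lower, *Cd163* and *Lrp1*, where 0.509% of all tested genes were called higher and 0.932% lower. At an unadjusted p under 0.05 there were 11 (11.2%), where 11.5% of all tested genes passed. The genotypes did not overlap for 15 of the 98 (15.3%, against 17.4% of all tested genes), 8 of them higher and 7 lower, and the median log2 fold change was -0.03. Both called genes are in the list of haem uptake, breakdown and export, of which 15 of 16 genes were tested. *Cd163*, the macrophage receptor for haemoglobin bound to haptoglobin, had 13.7, 13.2 and 13.0 CPM in *Txnip-/-* and 60.1, 53.4 and 54.0 CPM in WT. It fell in every library (log2 fold change -2.07, SE 0.15, adjusted p = 5.48e-07, edgeR) and is also among the Kupffer markers above. *Lrp1*, a receptor that takes up haem bound to hemopexin among many other ligands, had 9.83, 8.77 and 5.35 CPM in *Txnip-/-* and 23.5, 18.2 and 26.4 CPM in WT. It fell as well (log2 fold change -1.51, SE 0.25, adjusted p = 0.00313, edgeR). Both calls held with each library left out, and the part of the lower Kupffer marker sum in them was not tested.

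In the other lists no gene was called by edgeR's test, and for each the gene with the smallest p is given. Of the genes of iron uptake, reduction and cytosolic handling 10 of 16 were tested and 2 had an unadjusted p under 0.05. The smallest was that of *Lcn2*, the siderophore-binding lipocalin, at 9.04, 8.05 and 5.45 CPM in *Txnip-/-* and 2.63, 3.52 and 3.07 CPM in WT, without overlap (log2 fold change 1.29, adjusted p = 0.131, edgeR). In the IRP system and iron sensing, with 8 of 8 tested and 1 at an unadjusted p under 0.05, it was *Hif1a*, at 187, 155 and 181 CPM against 143, 133 and 148 CPM (log2 fold change 0.30, adjusted p = 0.189, edgeR). These groups did not overlap either. Of 28 genes of haem and iron-sulfur synthesis and mitochondrial iron all were tested and 1 passed an unadjusted p of 0.05. It was the porphyrin transporter gene *Abcb6*, at 4.46 ± 0.768 CPM against 7.73 ± 0.758 CPM (log2 fold change -0.79, adjusted p = 0.36, edgeR).

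In the list of hepcidin control 7 of 10 genes were tested and 2 had an unadjusted p under 0.05, the BMP ligand genes through which LSECs act on hepatocytes. *Bmp6* had 12.1, 10.8 and 7.59 CPM in *Txnip-/-* and 16.0, 13.2 and 20.3 CPM in WT (log2 fold change -0.70, adjusted p = 0.254, edgeR). *Bmp2*, named with it because it was the other of the 2, had 76.8, 70.4 and 72.4 CPM against 78.3, 96.6 and 88.8 CPM (log2 fold change -0.26, adjusted p = 0.36, edgeR). Every *Txnip-/-* library was below every WT library for both, and neither was called.

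The zinc transporters gave no called gene. Of the vesicular and export family Slc30 5 of 9 genes were tested and 0 had an unadjusted p under 0.05, the smallest p being that of *Slc30a7* (52.3 ± 3.46 CPM against 46.3 ± 11.2 CPM, adjusted p = 0.765, edgeR). Of the import family Slc39 12 of 13 were tested and 1 had an unadjusted p under 0.05. *Slc39a6* had 65.7, 76.1 and 96.2 CPM in *Txnip-/-* and 57.8, 58.9 and 53.9 CPM in WT, all higher in *Txnip-/-* (log2 fold change 0.48, adjusted p = 0.103, edgeR). *Mtf1* itself, which had the smaller p of the 2 tested genes of its list of 4, was level at 66.1 ± 5.04 CPM against 69.4 ± 8.49 CPM (log2 fold change -0.07, 95% interval -0.33 to 0.19, adjusted p = 0.9, edgeR). Of the copper genes 11 of 12 were tested and 1 had an unadjusted p under 0.05. It was the copper importer *Slc31a1*, at 33.3, 42.3 and 36.9 CPM against 44.2, 49.1 and 52.6 CPM (log2 fold change -0.37, adjusted p = 0.286, edgeR), without overlap between the genotypes.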

How the data were processed

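RNA of LSECs was measured in 3 *Txnip-/-* and 3 WT libraries. The authors deposited raw counts in integers, with 1 row per symbol apart from repeated ones, made by aligning single-end reads with Bowtie2 and counting unique and multiple alignments with bedtools on mm10, per the submitters' notes. Versions, annotation and use of strand were not given in the sources used here. In R 4.3.3, edgeR 4.0.16 (filterByExpr, TMM, glmQLFit, glmQLFTest, genotype as the single term, Benjamini-Hochberg adjustment over 11583 genes) was the test, with DESeq2 1.42.0 and limma 3.58.1 as alternatives. SEs and 95% intervals were derived from the fold change and its F statistic. The fold limit of 1.3 was read as linear, although the study words it as a log fold change. Read as a log2 fold change, it leaves 57 calls among all genes. Log2 CPM used a prior count of 2. The pipeline was tested on simulated data with known changes in genes picked at random. With edgeR and the same calling rule, 26 of 67 genes changed 1.5-fold were called (38.8%). At 2-fold 45 of 67 were called (67.2%) and at 4-fold 60 of 66 (90.9%), along with 9 unchanged genes. Changes smaller than 1.5-fold were not simulated. Copies were sought with blastn 2.17.0 in GENCODE M21 transcripts. The end of *Mt2* overlaps *Gm45774* on the opposite strand, and that of *Ftl1* the small RNA *Gm22133* on the same strand, neither with a row of its own.

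Genes named are the 10 members, *Txnip*, *Rn45s*, the called genes of each wider list or else its gene with the smallest p, the most abundant marker of each cell type and markers at 0, the 4 genes most correlated with *Fth1* and *Tfrc*, near-identical copies and genes that overlap the end of a member. *Bmp2*, *Acta2*, *Stab1*, *Mrc1*, *Ftmt*, *Fthl17*, *Mt3* and *Mt4* were added after their values were seen. The members and lists were chosen with earlier results of these data known. Wider genes listed under newer names were matched to older symbols through RefSeq synonyms.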

Additional observations from a re-analysis of the deposited data

How the results depend on the processing

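Among the 10 genes, 0 were called by edgeR; 1 was called, *Slc40a1*, with no normalization factors, DESeq2, no filter on low counts, an adjusted p under 0.1 or without WT replicates 1 and 2, and 1, *Fth1*, with no fold limit. With each library left out the count was 0. Of all tested genes 179 were called with no fold limit and 237 at an adjusted p under 0.1. All 167 calls became 301 with no filter, 57 with a log2 fold change above 1.3, 107 without WT replicates 1 and 2 and from 89 to 301 with 1 library left out, the highest without WT replicate 3 (147 shared). With the replicate block 108 genes and 0 of the 10 were called, and the adjusted p of *Fth1* rose to 0.111 with edgeR. Deviations of same-numbered libraries from their group means had correlations of -0.0296, 0.0167 and -0.0469, so no strong shared shift was seen. The labels do not say whether the numbers pair libraries. Signs turned for *Ftl1* (-0.037 with no normalization factors) and *Ncoa4* (-0.068 without WT replicate 3). *Slc39a14* turned to -0.0040 with no normalization factors, -0.070 without WT replicate 1 and -0.049 without WT replicate 2. It also turned to -0.016 without *Txnip-/-* replicate 2 and -0.38 without WT replicates 1 and 2. The sign stayed but the size moved for *Ncoa4*, at 0.27 without WT replicate 1 and 0.58 without WT replicates 1 and 2. The same held for *Slc39a14*, at 0.36 without WT replicate 3. The cause of these shifts was not tested. No normalization factors moved the median of all genes to -0.0824. Members without overlap, 6, were 4 with no normalization factors, where 18.5% of all genes were without overlap, and 9 without WT replicates 1 and 2, where 55.2% were, and called wider genes, 2, were 3 with no filter and without WT replicate 3. The other alternatives were RLE factors, 10 counts in every library and leaving out *Rn45s*; these changed no call among the 10 genes. *Tfrc* was 0.64 without WT replicates 1 and 2.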
